A study of Mus musculus with 12 samples.

Results

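Genes of the opioid and cannabinoid systems were followed in mouse dorsal root ganglia after deletion of Prdm12 in the adult. They were taken by name: the opioid receptors Oprm1, Oprd1, Oprk1 and Oprl1, the opioid peptide precursors Penk, Pdyn and Pnoc, the cannabinoid receptor Cnr1, and Faah and Mgll, which encode the enzymes that break down endocannabinoids. All 10 were matched among the 55416 genes counted. In the mouse annotation used, Oprd1, Penk, Cnr1 and Faah lie on chromosome 4, Oprl1 and Pdyn on chromosome 2, Oprk1 on chromosome 1, Mgll on chromosome 6, Oprm1 on chromosome 10 and Pnoc on chromosome 14. Polyadenylated RNA of whole dorsal root ganglia, where the cell bodies of sensory neurons sit, was sequenced from adult mice labelled C57Bl6, in 6 inducible knockout (iKO) and 6 control libraries, 1 month after injection. The iKO animals carried Rosa26Cre ERT2, a Cre recombinase that tamoxifen activates in neurons and other cells alike, with 2 floxed Prdm12 alleles (Fl/Fl), and received tamoxifen. Controls 1 to 4 also received tamoxifen: control 1 had Rosa26Cre ERT2 and 1 floxed allele, controls 2 and 3 had 1 floxed allele without Cre, and control 4 had Rosa26Cre ERT2 with 0 floxed alleles. Controls 5 and 6 had the iKO genotype and received corn oil, the solvent. Libraries iKO 1 to 3 and controls 1 and 2 were female, the other 7 male. How many animals went into a library is not stated; the p-values therefore reflect variation among these libraries, some of which may be technical.

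Opioid receptors are G protein-coupled receptors that act through inhibitory Gi/o proteins: they lower cyclic AMP, close presynaptic calcium channels and open inwardly rectifying potassium channels, and so dampen transmitter release from pain-sensing neurons (nociceptors). Their ligands are peptides cut from large precursors by prohormone convertases. The cannabinoid receptor CB1, encoded by Cnr1, couples to the same G proteins and is activated by the lipids anandamide and 2-arachidonoylglycerol, which are made on demand and then hydrolysed. Prdm12, a PRDM-family zinc finger protein, is required for the embryonic development of nociceptors; the libraries address its role in mature ganglia.

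Library totals ran from 13943784 to 20377766 counts. Levels are given as CPM, a gene's counts scaled to a common library size, after scaling of libraries by the trimmed mean of M-values. Prdm12 had 18.6 to 25.4 CPM in iKO libraries and 64.6 to 147 CPM in controls, with no overlap (p = 0.00216 by an exact permutation test, 2-sided on log2 values, which can give no smaller p). The control low was that of control 6, a corn-oil control, and the other controls had 107 to 147 CPM. The antisense gene Gm13425 shares 8.09% of Prdm12's exon bases, and its level is not given here. The summed level of 11 sensory neuron markers was 9687 to 13225 CPM in iKO libraries and 10660 to 13104 CPM in controls, while 8 spinal cord markers summed to 4.12 to 14.9 CPM in iKO libraries and 3.92 to 17.6 CPM in controls. The library iKO 1 stood apart: its neuron markers summed to 9687 CPM, against 12413 to 13225 CPM in the other 5 iKO libraries, and its fibroblast markers to 3148 CPM, against 1181 to 1370 CPM. Its macrophage markers summed to 246 CPM, against 89.9 to 106 CPM in the other iKO libraries. Fold changes of the tested members against all controls are therefore also given without iKO 1. Whole ganglia were measured, so fewer cells of a type and less RNA per cell cannot be told apart.

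Transcripts of the 10 genes covered a wide range when compared per length, as CPM per kb of exon, with exon lengths from GENCODE for a build that precedes the one the authors used. Mgll, for monoacylglycerol lipase, was highest in both groups, with a level of 15 ± 1.21 CPM per kb in iKO libraries and 17.3 ± 0.644 CPM per kb in controls (SD, n = 6 each). Cnr1 had 7.48 ± 1.37 CPM per kb in iKO and 7.12 ± 0.828 in control libraries, Oprl1 7.34 ± 1.27 in iKO and 6.40 ± 1.24 in control libraries. Penk had 5.71 ± 6.31 CPM per kb in iKO and 6.06 ± 3.56 in control libraries, and these neighbours overlapped over the libraries of each group. Oprd1 (iKO 3.20 ± 0.642, control 3.87 ± 0.751), Oprm1 (iKO 3.05 ± 0.506, control 3.65 ± 0.204) and Faah (iKO 2.86 ± 0.419, control 2.52 ± 0.281) came next by mean. Penk, at 1.63 to 18.3 CPM per kb in iKO and 2.85 to 11.3 in control libraries, also overlapped Oprd1 in both groups. Among Oprd1, Oprm1 and Faah, neighbours overlapped in iKO libraries, whereas in controls every Oprm1 level lay above every Faah level. Oprk1 followed, with 0.533 ± 0.123 CPM per kb in iKO and 0.459 ± 0.0379 in control libraries, and overlapped no neighbour in either group. Pdyn (iKO 0.162 ± 0.0437, control 0.119 ± 0.0492) and Pnoc (iKO 0.135 ± 0.0903, control 0.211 ± 0.119) were lowest and overlapped each other. The order of the means was the same in iKO and control libraries except for Pdyn and Pnoc. Long or rare isoforms lengthen the annotated exons of a gene and lower its value on this scale.

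**Figure D1:**
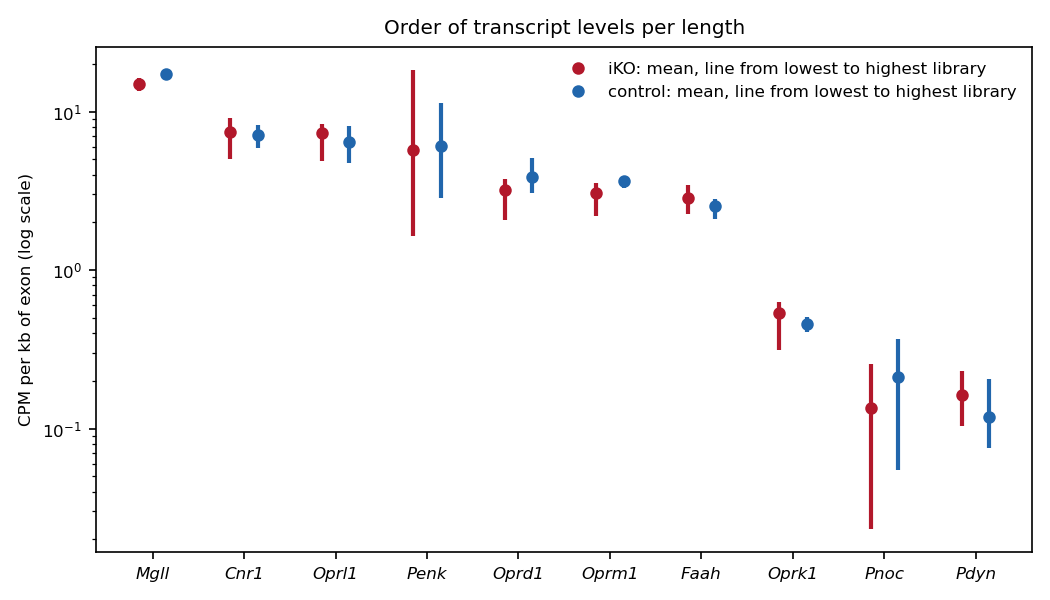
Transcript level per length (CPM per kb of exon, log axis) of the 10 genes, ordered by their control mean. Points are means of the 6 iKO and 6 control libraries and lines run from the lowest to the highest library; Mgll has the highest mean in both groups, and Penk runs from 1.63 to 18.3 CPM per kb in iKO libraries.

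Against this background the question was whether loss of Prdm12 changed the genes that let ganglion neurons respond to opioids and cannabinoids. None of them was called. Of the 10 genes 8 had enough counts to be tested, and 0 of the 8 passed an adjusted p of 0.05 in edgeR's quasi-likelihood test with sex as a covariate (Benjamini-Hochberg adjustment over all 16384 genes tested), where 0.946% of all genes tested passed. At an unadjusted p under 0.05 there were 2 of 8, Mgll and Oprm1, against 9.52% of all genes. DESeq2 and limma-voom also called 0 members. Fold changes were small, from -0.25 to 0.25 on the log2 scale, 5 positive and 3 negative, with a median of 0.05 beside 0.00 over all genes. Mgll was the only one of the 8 whose iKO and control libraries did not overlap, a pattern shown by 1.54% of all genes tested in either direction and by 0.665% with the iKO libraries lower.

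**Figure D2:**
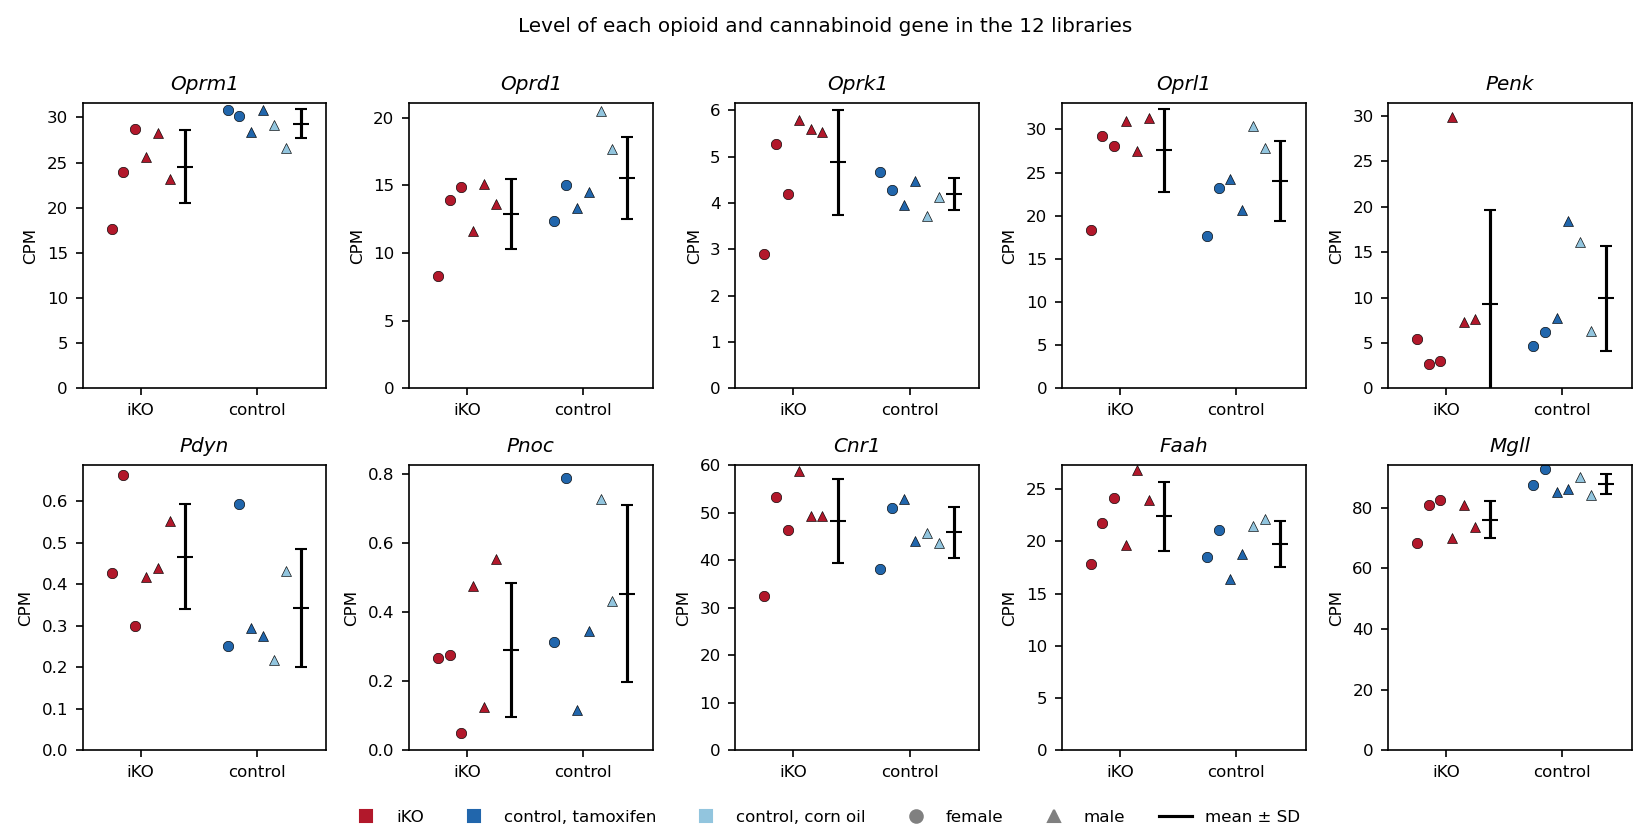
Level (CPM, axis from 0) of each gene in each library, iKO left and control right; circles are females, triangles males, pale triangles the corn-oil controls, and bars the mean ± SD of 6 libraries (the lower bar of Penk in iKO libraries is cut at 0). Only for Mgll do all 6 iKO libraries, at 68.3 to 82.4 CPM, lie below all 6 controls, at 84.3 to 92.9 CPM.

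Among the receptors, Oprm1 (ENSMUSG00000000766) encodes the μ-opioid receptor, the target of morphine and β-endorphin. Its level ran from 17.6 to 28.7 CPM (median 24.7) in iKO libraries and from 26.6 to 30.8 CPM (median 29.7) in controls. All 6 iKO libraries lay below the control median and 4 below every control, and the groups overlapped through iKO 3 and iKO 5. The log2 fold change was -0.25 ± 0.10 (SE, 95% interval -0.47 to -0.04, edgeR adjusted p = 0.433), and it was -0.18 without iKO 1, the lowest library. Within replicates 1 to 4 the value was -0.31 and within replicates 5 and 6, whose samples carry a separate run of numbers in the deposited names, -0.11. No label says what that run of numbers stands for. Ipcef1, on the opposite strand, shares 1.19% of Oprm1's exon bases and had at most 4.28 CPM in any library.

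The δ-opioid receptor gene Oprd1 (ENSMUSG00000050511), whose product binds enkephalins, had 8.29 to 15.1 CPM (median 13.7) in iKO libraries and 12.4 to 20.5 CPM (median 14.7) in controls. The upper end of the control range came from the corn-oil controls, at 20.5 CPM in control 5 and 17.7 CPM in control 6, above every other library. The lowest value was that of iKO 1. Its log2 fold change was -0.24 ± 0.15 (SE, 95% interval -0.55 to 0.08, edgeR adjusted p = 0.642), and -0.16 without iKO 1. It was -0.18 within replicates 1 to 4 and -0.41 within replicates 5 and 6.

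Oprk1 (ENSMUSG00000025905), for the κ-opioid receptor that dynorphins activate, was the least abundant receptor, with 54 to 97 counts in iKO libraries and 51 to 74 counts in controls. This corresponds to 2.89 to 5.79 CPM (median 5.40) in iKO libraries and 3.71 to 4.66 CPM (median 4.21) in controls. In the iKO group 4 libraries lay above every control, while iKO 1 lay below all of them and iKO 3 among them. The log2 fold change was 0.23 ± 0.15 (SE, 95% interval -0.10 to 0.56, edgeR adjusted p = 0.669), and 0.33 without iKO 1. It was 0.10 within replicates 1 to 4 and 0.50 within replicates 5 and 6. By sex, the 3 iKO males had 5.53 to 5.79 CPM and the 4 control males 3.71 to 4.48 CPM, with no overlap, whereas the 3 iKO females, at 2.89 to 5.27 CPM, spanned both control females, at 4.28 and 4.66 CPM. Of all genes tested, 7.79% separated iKO males from control males in either direction and 3.55% with the iKO males higher, and the split was chosen after the values were seen. The difference between the sexes in this fold change, male minus female, was 0.59 ± 0.28 (SE) and did not pass the test (edgeR adjusted p = 0.945).

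Oprl1 (ENSMUSG00000027584) encodes the nociceptin receptor, a relative of the opioid receptors that does not bind the classical opioids with high affinity. It had 18.3 to 31.3 CPM (median 28.6) in iKO libraries and 17.7 to 30.4 CPM (median 23.7) in controls. The iKO libraries other than iKO 1 were close together, at 27.5 to 31.3 CPM. Both corn-oil controls, at 30.4 and 27.9 CPM, lay within that span, and the 4 tamoxifen-injected controls lay below it, at 17.7 to 24.2 CPM. Against all controls the log2 fold change was 0.25 ± 0.12 (SE, 95% interval -0.02 to 0.52, edgeR adjusted p = 0.548), and 0.32 without iKO 1. Replicates 1 to 4 alone gave 0.37, and replicates 5 and 6 alone 0.02.

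Of the peptide precursors, Penk (ENSMUSG00000045573), which yields Met- and Leu-enkephalin, was the most abundant, and of all 10 genes it had the largest SD relative to its mean in each group. Its level was 2.66 to 29.9 CPM (median 6.35) in iKO libraries and 4.66 to 18.4 CPM (median 7.04) in controls. A set of 3 libraries stood above the other 9: iKO 4 at 29.9 CPM (502 counts), control 4 at 18.4 CPM (267 counts) and control 5 at 16.1 CPM (221 counts). The log2 fold change between iKO and control was 0.00 ± 0.45 (SE, 95% interval -0.99 to 1.00, edgeR adjusted p = 0.998), so that a change of 2-fold in either direction lay at the edge of the interval. Without iKO 4 it was -0.62 (edgeR adjusted p = 0.400), and without iKO 1 it was -0.02. Within replicates 1 to 4 it was 0.22 and within replicates 5 and 6 it was -0.57. Penk shares 14.3% of its exon bases with A830012C17Rik on the opposite strand. These libraries do not record the strand, and that gene had 0 counts in all 6 iKO libraries and at most 2 in a control.

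All 3 high Penk libraries were male, and Penk was also the only tested gene of the set that separated the sexes. It had 6.35 to 29.9 CPM (median 7.73) in the 7 males and 2.66 to 6.19 CPM (median 4.66) in the 5 females. The remaining 4 males, at 6.35 to 7.73 CPM, were just above the highest female. The fitted log2 difference, male over female, was 1.61 ± 0.47 (SE, 95% interval 0.58 to 2.64), and it did not pass the test (edgeR adjusted p = 0.904, unadjusted p = 0.00552), where 0.0549% of all genes passed and 4.11% had an unadjusted p under 0.05. Sexes that did not overlap were found in 0.250% of all genes tested, with males higher in 0.128%. All libraries of replicates 5 and 6, both corn-oil controls among them, were male. Sex was thus partly tied to run and agent, and their parts were not separated. Across the 12 libraries the genes most like Penk in log2 CPM were Srd5a2, for a steroid 5α-reductase (Pearson r = 0.95, Spearman rho = 0.94), Uts2b, for a urotensin-family peptide (r = 0.91, rho = 0.74), and Angpt4, for an angiopoietin (r = 0.85, rho = 0.85). They were picked as the highest r among 14489 genes, so the r values are a description only.

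Srd5a2 had 18.3 CPM in iKO 4, 10.8 CPM in control 4 and 9.30 CPM in control 5, and at most 2.24 CPM in any other library. Uts2b had 7.34 CPM in iKO 4, 5.03 CPM in control 4 and 5.16 CPM in control 5, and at most 1.44 CPM elsewhere. The high libraries of Penk, Srd5a2 and Uts2b were thus the same 3, 1 iKO and 2 controls. Marker sums of these 3 libraries were 12109 to 13104 CPM for sensory neurons, 68.2 to 90.0 CPM for endothelium and 1241 to 1465 CPM for fibroblasts. Of 15 marker sums, iKO 4 had the lowest of all libraries for endothelium, lymphocytes (2.56 CPM), skeletal muscle (14.2 CPM), adipocytes (8.35 CPM) and erythroid cells (72.5 CPM). Controls 4 and 5 were higher for each of these. They had 8.13 and 6.03 CPM for lymphocytes and 79.5 and 41.2 CPM for skeletal muscle. For adipocytes they had 17.4 and 11 CPM, and for erythroid cells 196 and 267 CPM. For peptidergic nociceptors iKO 4 had the highest sum of the iKO libraries, 2257 CPM, and control 4 the highest of the controls, 2419 CPM, while control 5 had 2051 CPM. Their part in the Penk levels was not tested.

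**Figure D3:**
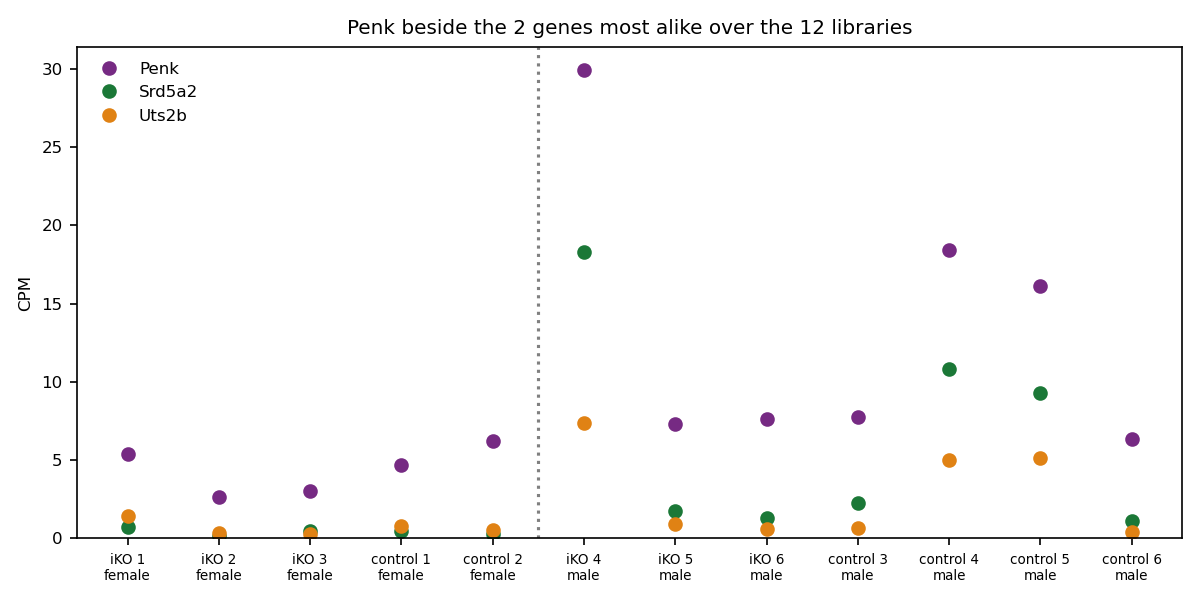
Level (CPM) of Penk, Srd5a2 and Uts2b in each library, females left of the dotted line and males right, iKO before control within each sex. The male libraries iKO 4, control 4 and control 5 are highest for all 3 genes, at 29.9, 18.4 and 16.1 CPM for Penk.

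The other precursor genes were close to the limit of detection and failed the filter on low counts. Pdyn (ENSMUSG00000027400), the dynorphin precursor, had 6 to 12 counts in each iKO library and 3 to 9 in each control, or 0.299 to 0.665 CPM in iKO libraries and 0.218 to 0.593 CPM in controls. Pnoc (ENSMUSG00000045731), which yields nociceptin, the ligand of the Oprl1 receptor, had 1 to 9 counts in iKO libraries and 2 to 12 in controls, or 0.0498 to 0.553 CPM in iKO libraries and 0.118 to 0.790 CPM in controls. The groups overlapped for both. When all genes with a count were fitted, the log2 fold changes were 0.41 ± 0.37 (SE) for Pdyn and -0.59 ± 0.44 (SE) for Pnoc (edgeR adjusted p = 0.820 and 0.817).

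Cnr1 (ENSMUSG00000044288), for the CB1 receptor, had 32.4 to 58.7 CPM (median 49.2) in iKO libraries and 38.1 to 52.8 CPM (median 45.0) in controls, and was the most abundant receptor transcript of the set by mean CPM per kb. The lowest library was iKO 1 and the highest iKO 4, so the controls lay inside the iKO range. The log2 fold change was 0.09 ± 0.11 (SE, edgeR adjusted p = 0.835), with a 95% interval of -0.15 to 0.34, and 0.17 without iKO 1. Its values within replicates 1 to 4 and within replicates 5 and 6 were 0.10 and 0.14.

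The hydrolases had fold changes of opposite sign. Faah (ENSMUSG00000034171), for fatty acid amide hydrolase, the main enzyme that breaks down anandamide, had 17.8 to 26.8 CPM (median 22.9) in iKO libraries and 16.4 to 22.1 CPM (median 19.9) in controls. In the iKO group 3 libraries lay above every control and the other 3 overlapped them. Its log2 fold change was 0.19 ± 0.10 (SE, 95% interval -0.03 to 0.42, edgeR adjusted p = 0.579), with 0.25 without iKO 1, 0.14 within replicates 1 to 4 and 0.22 within replicates 5 and 6.

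Mgll (ENSMUSG00000033174), whose product hydrolyses most 2-arachidonoylglycerol in nervous tissue, had 68.3 to 82.4 CPM (median 77.2) in iKO libraries and 84.3 to 92.9 CPM (median 86.9) in controls. Every iKO library was below every control, by a narrow gap between iKO 3 at 82.4 CPM and control 6 at 84.3 CPM. Mean levels were 76.1 ± 6.14 CPM in iKO libraries and 87.7 ± 3.27 CPM in controls (SD, n = 6 each), so the iKO mean was 86.7% of the control mean. The log2 fold change was -0.21 ± 0.06 (SE, 95% interval -0.34 to -0.09), the smallest p of the set (unadjusted 0.00230), and it did not pass the adjustment over all genes (edgeR adjusted p = 0.139). The lowest library was iKO 1, and without it the fold change was -0.18 (edgeR adjusted p = 0.0690), with the other iKO libraries at 70.1 to 82.4 CPM. Replicates 1 to 4 gave -0.24 and replicates 5 and 6 gave -0.17. Summed markers of Schwann cells were 4502 to 6418 CPM in iKO libraries and 3922 to 4981 CPM in controls, and those of peptidergic nociceptors 1877 to 2257 CPM in iKO libraries and 2000 to 2419 CPM in controls. The Schwann cell high and the nociceptor low were those of iKO 1, and the other iKO libraries had 4502 to 5554 CPM and 2039 to 2257 CPM for these sums. Their part in the Mgll and Oprm1 levels was not tested. The antisense gene Gm26588 shares 3.29% of Mgll's exon bases and had at most 0.944 CPM in any library.

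Since the controls were of 2 kinds, the 8 tested genes were also compared with each kind in a fit over all 12 libraries. These comparisons share the iKO libraries. Against the 4 tamoxifen-injected controls 0 of 8 members were called, where 1.35% of all genes passed, and against the 2 corn-oil controls 0 of 8, where 0.146% passed. On the log2 scale Mgll had -0.21 ± 0.06 (SE) with tamoxifen-injected controls as the comparison and -0.23 ± 0.09 with corn-oil ones (edgeR adjusted p = 0.128 and 0.764). Oprm1 had -0.29 ± 0.11 and -0.15 ± 0.15 in the same comparisons (edgeR adjusted p = 0.209 and 1). For Oprd1 the values were -0.10 ± 0.15 and -0.53 ± 0.19 (0.784 and 0.727, edgeR adjusted p), following the high corn-oil libraries. Oprl1 had 0.36 ± 0.13 and 0.02 ± 0.17 (edgeR adjusted p = 0.177 and 1). Faah had 0.26 ± 0.11 and 0.05 ± 0.15 (edgeR adjusted p = 0.260 and 1).

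Against the tamoxifen-injected controls 2 members were called when iKO 1 was left out. Oprl1 then had a log2 fold change of 0.45 (edgeR adjusted p = 0.00371) and Faah 0.33 (edgeR adjusted p = 0.0369). That fit called 1459 of 16454 genes, in place of 222 of 16384, so calls rose over all genes too. Between the corn-oil and the tamoxifen-injected controls, the agent, the genotype and the run of sample numbers cannot be told apart.

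**Figure D4:**
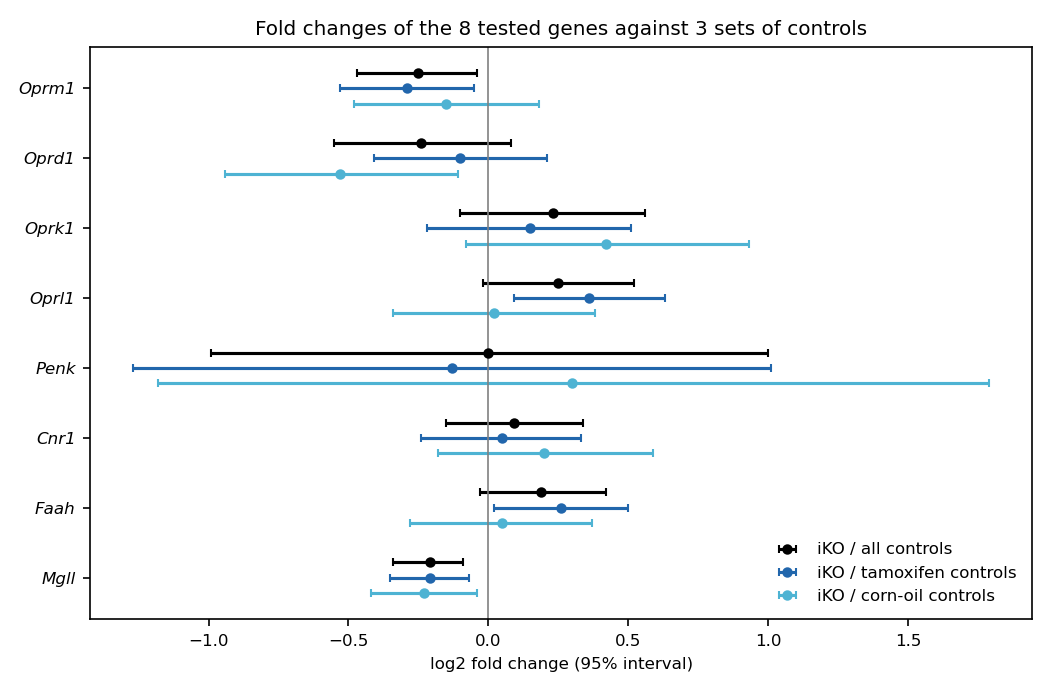
Log2 fold changes with 95% intervals of the 8 tested genes, iKO over all 6 controls (black), over the 4 tamoxifen-injected controls (dark blue) and over the 2 corn-oil controls (pale blue). The 3 intervals of Mgll lie below 0 (-0.34 to -0.09 against all controls) without adjustment for the number of genes, and those of Penk are the widest.

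Between the sexes 0 of the 8 genes passed the test, where 0.0549% of all genes passed. For the difference of the iKO effect between sexes 0 of the 8 passed, where 0% of all genes passed (0 of 16384). At an unadjusted p under 0.05 that difference had 589 genes, or 3.59%, and 0 of 8 members. After Penk, the smallest unadjusted p for sex was that of Oprl1, with a log2 difference, male over female, of 0.29 ± 0.13 (SE, edgeR adjusted p = 0.904). Here too sex was partly tied to run and agent. Mgll had -0.05 ± 0.06 for sex and 0.02 ± 0.12 for the difference of the iKO effect, the smallest absolute interaction value of the 8 genes.

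Other genes of the opioid and cannabinoid pathways were read from 7 lists with 83 entries, of which 80 were tested. Of these 1 was called lower in iKO libraries, Gng2, and 0 were called higher, where 0.946% of all genes tested were called. The median log2 fold change over the 80 was 0.02, and 17 of the 80 had an unadjusted p under 0.05, where 9.52% of all genes had. Gng2 encodes a γ subunit of heterotrimeric G proteins, the partner released with β when Gi/o-coupled receptors are activated. It had 233 to 281 CPM in iKO libraries (mean 251 ± 17.2, SD) and 341 to 423 CPM in controls (mean 383 ± 35.6), with no overlap. Its log2 fold change was -0.60 ± 0.07 (SE, edgeR adjusted p = 0.000553), with -0.64 within replicates 1 to 4 and -0.44 within replicates 5 and 6. It was called in every alternative run of this comparison, including each of the 12 fits that left out a library. By kind of control, Gng2 had -0.69 ± 0.06 (SE) against the tamoxifen-injected controls (edgeR adjusted p = 6.82e-05) and was not called against the corn-oil controls, at -0.39 ± 0.08 (edgeR adjusted p = 0.109). Among the other 14 Gi/o and adenylyl cyclase genes 0 were called.

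In the remaining lists 0 genes were called against all controls together, where 0.946% of all genes tested were. The gene with the smallest p in that comparison is given. Of 8 other receptors and precursors, 4 had positive and 4 negative fold changes (median 0.02), and Mrgprx1, a Mas-related receptor with close family copies whose counts are uncertain where reads are shared, had -0.35 ± 0.10 (SE, edgeR adjusted p = 0.164). Against the tamoxifen-injected controls Mrgprx1 had -0.43 ± 0.10 and was called (edgeR adjusted p = 0.0493). Against the corn-oil controls it had -0.14 ± 0.13 and was not called. Pomc, the β-endorphin precursor, had the highest fold change of that list, at 0.42 ± 0.30 (SE, edgeR adjusted p = 0.693). Cnr2, for the CB2 receptor, had the lowest, at -0.48 ± 0.52 (edgeR adjusted p = 0.811). Both rest on low counts. Pomc had 9 to 27 counts in iKO libraries and 6 to 16 in controls, and Cnr2 had 3 to 36 and 7 to 17. Of 15 genes of endocannabinoid synthesis, breakdown and transport, 6 were positive and 9 negative (median -0.00), with Daglb, a diacylglycerol lipase that makes 2-arachidonoylglycerol, at 0.18 ± 0.09 (edgeR adjusted p = 0.524). Neuropeptide processing genes were positive in 7 of 10 (median 0.12). Pam, which amidates peptides, had 269 to 305 CPM in iKO libraries and 227 to 257 CPM in controls, without overlap, and a log2 fold change of 0.23 ± 0.06 (edgeR adjusted p = 0.0964).

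Of 8 peptidase genes 4 were positive and 4 negative (median -0.00). Ecel1, a neuronal endopeptidase known for its induction after nerve injury, had -1.51 ± 0.36 (SE, edgeR adjusted p = 0.0671), at only 3 to 10 counts in iKO libraries and 6 to 35 in controls. Against the tamoxifen-injected controls Ecel1 had -1.74 ± 0.34 and was called (edgeR adjusted p = 0.0236). Against the corn-oil controls it had -0.90 ± 0.46 and was not called. Of 7 tested effector channels 3 were positive and 4 negative (median -0.00), with Cacna1h, for a T-type calcium channel, at 0.19 ± 0.08 (edgeR adjusted p = 0.481). Of 17 genes of receptor desensitization, sorting and RGS proteins, 10 were positive and 7 negative (median 0.04). Grk5, a kinase that phosphorylates activated receptors, had 26.6 to 31.9 CPM in iKO libraries and 31.0 to 35.9 CPM in controls and a log2 fold change of -0.20 ± 0.06 (edgeR adjusted p = 0.227). Daglb, Pam, Cacna1h and Grk5 were called against neither kind of control. Without iKO 1 the number of called genes over the 7 lists was 6 in place of 1: Gng2 and Ecel1 lower, and Pam, Kcnj3, Ogfrl1 and Pcsk2 higher. Over all genes that fit called 364 of 16454, in place of 155 of 16384. Without control 5 the number over the lists was 3, Gng2 and Ecel1 lower and Pcsk1n higher. That fit called 188 of 16522 genes.

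**Figure D5:**
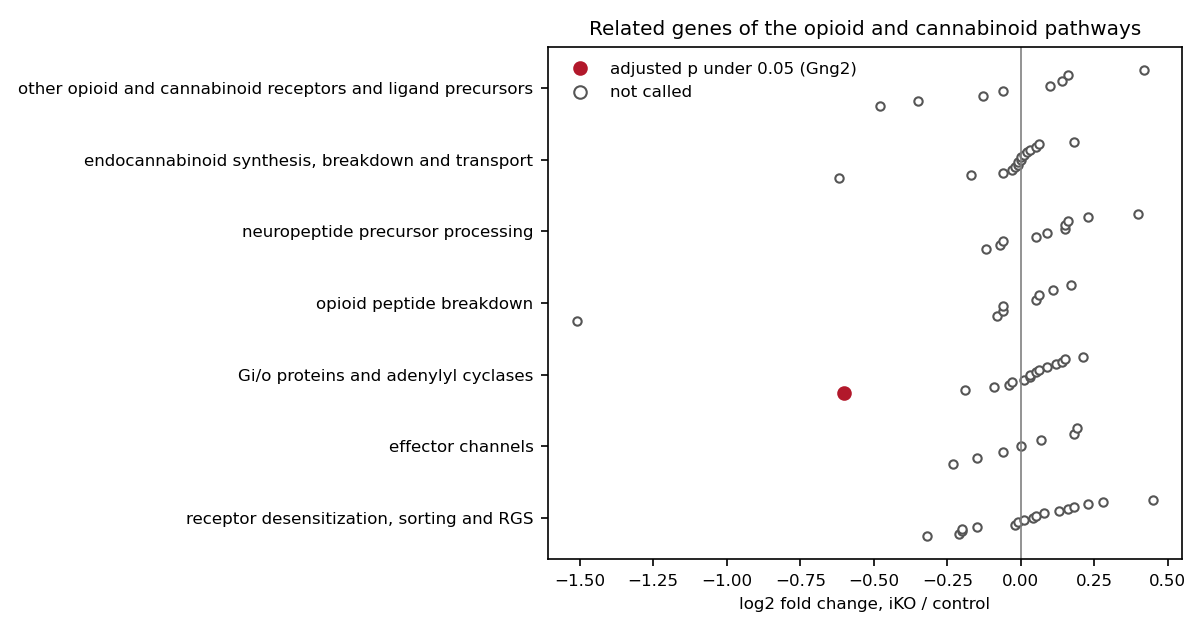
Log2 fold change (iKO over control) of the 80 tested related genes, 1 row for each of 7 lists and 1 point per gene. The only called gene, Gng2, is filled at -0.60; Ecel1 is the point at -1.51 and was not called.

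For the other tested members, the genes with the most similar log2 CPM over the 12 libraries were again picked by the highest Pearson r. They were Tpr, Amer2 and Dhx57 for Oprm1 (r = 0.93 to 0.94), Cntn2, Zfp398 and Camk2g for Oprd1 (0.94 to 0.97), and Rasa1, Unc13c and Rapgef6 for Oprk1 (0.88 to 0.91). For Oprl1 they were Ppm1h, Pex5l and Ubl3 (0.93 to 0.96), for Cnr1 Bhlhb9, Inpp5f and Zfand5 (0.94 to 0.95), and for Faah Map3k4, Gfra1 and Adap1 (0.94 to 0.96). Mgll was most like Mst1r, Abcc8 and Galc (0.91 to 0.93). These points share their libraries, with the depth and tissue composition of each, iKO 1 included. Of the genes most like a member 0 were called between iKO and control, where 0.946% of all genes tested were. The smallest edgeR adjusted p was 0.0836, for Abcc8. Because they were picked for likeness to members that were not called, in these same libraries, this count is a description only.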

How the data were processed

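RNA was measured in 12 libraries of dorsal root ganglia. The authors deposited unnormalised gene counts; the submitters' processing notes name GRCm39, featureCounts 2.0.1, STAR 2.7.8a and bcl2fastq 2.20.0.422. Libraries were not stranded, per the labels' protocols. The sources used here give neither annotation release nor counting options. Symbols for 52083 of 55416 identifiers, exon lengths and overlaps came from GENCODE for GRCm38, so no positions are given.

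Counts were scaled by TMM and filtered with filterByExpr, and 16384 genes were tested with edgeR 4.0.16 (R 4.3.3, quasi-likelihood, robust, sex and group as terms, 2-sided, Benjamini-Hochberg over all genes, threshold 0.05). Each SE was the fold change divided by the root of its F. Log2 CPM used a prior count of 2. Alternatives included DESeq2 1.42.0 and limma 3.58.1.

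The members and lists were chosen with earlier results of these data known. The text names Prdm12, all 10 members, called genes of each related list (or its smallest p), and the 3 genes most like each member. Srd5a2 and Uts2b levels, and genes called only under an alternative or at a list's extremes, were chosen after their values were seen.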

Additional observations from a re-analysis of the deposited data

Results flagged for a closer look

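Single libraries were far from the other 5 of their group in 3 of 36 groups of 6 examined, 18 genes in iKO and in control libraries. By chance about 1 in 20 such groups would be. Oprl1 in iKO 1 was low, at 18.3 CPM against 27.5 to 31.3 CPM in the other iKO libraries. Penk in iKO 4 was high, at 29.9 CPM against 2.66 to 7.62 CPM. Prdm12 in iKO 1 was the lowest of all libraries, at 18.6 CPM.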

How the results depend on the processing

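Over all alternatives 0 members were called in iKO against control, and the directions held for 7 of the 8 tested members. The exception was Penk, with a log2 fold change of 0.00: it was -0.04 by DESeq2 and by limma-voom, -0.09 with no sex term, -0.05 with the run as a term, -0.57 in replicates 5 and 6 alone and -0.12 without the corn-oil controls, and -0.62 to 0.17 on leaving out single libraries. Same-numbered iKO and control libraries did not deviate together in every pair (r = -0.15 to 0.22, 3 of 6 iKO libraries best matched by their own number). This cannot decide whether the numbers pair the samples, because no chance level was worked out and replicates 5 and 6 form a separate run. With the replicate number as a block Penk was at -0.18, and 0 members and 79 genes were called.

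Genes called in iKO against control, 155, were 253 with no filter, 276 by DESeq2, 35 in replicates 1 to 4, 82 in replicates 5 and 6, 235 without the corn-oil controls, and 92 (without control 1) to 364 (without iKO 1) on leaving out single libraries. Prdm12 had -2.13 in replicates 5 and 6 (edgeR adjusted p = 0.622). Called related genes, 1, were 2 with no filter or with the run as a term, 5 by DESeq2, 4 without the corn-oil controls and 1 to 6 on leaving out single libraries. With no filter, 35885 genes were tested. Of these, 927 genes and 1 member (Oprl1, 0.38, edgeR adjusted p = 0.00638) were called against tamoxifen-injected controls, 349 against corn-oil controls, 16 for sex and 270 for the interaction. On leaving out single libraries these counts ran from 98 to 1459 genes and 0 to 2 members, 3 to 160, 8 to 11, and 0 to 1 (main counts 222, 24, 9 and 0). Against tamoxifen-injected controls such fits gave -0.17 to 0.01 for Oprd1, -0.67 to 0.05 for Penk and -0.01 to 0.16 for Cnr1; against corn-oil controls -0.04 to 0.09 for Oprl1, -0.51 to 1.12 for Penk and -0.04 to 0.11 for Faah; and for sex -0.05 to 0.10 for Oprm1. The causes were not tested. Pdyn, Pnoc, Ecel1, Pomc and Cnr2 rest on low counts.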
